A study of Sorghum bicolor with 24 samples.

Results

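The genes described here have protein descriptions tied to jasmonates or to lipoxygenases, and were measured in roots of Sorghum bicolor. They were chosen by words in the protein description that the authors attached to each gene: lipoxygenase, allene oxide, 12-oxophytodienoate reductase, any word with "jasmon", or TIFY. Cytochrome P450 entries and 1 gene that the rule left out were not included. This gave 56 of the 34129 sorghum genes listed in either deposited table. Among them were 8 genes described as linoleate 9S-lipoxygenases and 4 other lipoxygenases. There were also 3 allene oxide synthases, 1 allene oxide cyclase, 13 12-oxophytodienoate reductases (OPR), 7 enzymes that modify jasmonate, 19 TIFY proteins and 1 other jasmonate-named protein. The names are descriptions by similarity, mostly to rice proteins, and were not tested in sorghum by these data.

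RNA-seq was done on roots in 2 experiments, each with its own gene table. In the first, roots were mock-treated or phosphorus (P) deficient for 4 or 7 days. In the second, roots received mock or GR245DS, a synthetic analogue of the strigolactone hormones, for 3 or 6 h. Each of the 8 groups had 3 libraries, and the labels give no cultivar, plant age or GR245DS dose. The labels do not say whether libraries came from separate plants, so the spread among the 3 may be technical. The p-values below rest on a spread estimated over all 12 libraries of an experiment, and share that limit.

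Jasmonate synthesis begins in plastids, where a 13-lipoxygenase oxidises linolenic acid and allene oxide synthase and cyclase turn the product into 12-oxophytodienoic acid. A reductase and beta-oxidation in the peroxisome then give jasmonic acid, which a GH3-type synthetase (JAR) joins to isoleucine. The conjugate binds the COI receptor, which marks TIFY (JAZ) repressors for destruction and frees transcription factors such as MYC2. In roots the hormone is known for restraining growth and for defence against wounding, herbivores and microbes. The 9-lipoxygenases oxidise the same fatty acids at another carbon, and their products lie outside the jasmonate route.

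Total counts per library were 32631226 to 45292506 in the P experiment and 31677623 to 38706195 in the GR245DS experiment. In the P experiment the phosphate-starvation genes went against the labels. Of 45 tested of 54 listed, 30 were lower and 8 higher at day 4 in the P-deficiency-labelled libraries, and 30 were lower and 7 higher at day 7. Their summed level was 1523 to 2126 CPM (counts scaled to a common library size, TMM-corrected) in those libraries and 10385 to 13272 CPM in mock. Directions below follow the deposited labels, and every difference between mock and P deficiency would turn round if the labels were exchanged. Secondary-wall markers (30 genes, 6 to 8 of them at 0 in a group) summed to 2512 to 2978 CPM in mock and 605 to 894 CPM in the P-deficiency-labelled libraries. Of 21 tested, 2 were higher and 13 lower at day 4, and 4 were higher and 11 lower at day 7. Root markers (47 genes, 9 to 13 at 0) summed to 1541 to 2824 CPM in mock and 3523 to 3912 CPM in the P-deficiency-labelled libraries at day 4, and to 2729 to 4117 CPM and 4796 to 6153 CPM at day 7. These sums ran against most calls of the list. Of 34 root markers tested, 5 were higher and 10 lower at day 4, and 5 were higher and 7 lower at day 7. Their median log2 differences were -0.38 and -0.43. Leaf markers (19 genes, 3 to 7 at 0) summed to 11.7 to 22 CPM in mock and 29.4 to 36.1 CPM in the P-deficiency-labelled libraries. Of 13 tested, 5 were higher and 0 lower at day 4, and 6 were higher and 0 lower at day 7. Over all genes, 20.3% were higher and 18.4% lower at day 4, and 17.4% and 18.2% at day 7. The part of these markers in the results below was not tested. In bulk RNA, fewer cells of a type and less RNA per cell cannot be told apart. In the GR245DS experiment, leaf markers summed to 305 to 1268 CPM and root markers to 254 to 1729 CPM, and the ranges of treated and mock libraries overlapped at both times. Within 1 group, GR245DS at 3 h, root markers ranged from 254 to 1485 CPM. EdgeR called 0 of 18 leaf and 0 of 35 root markers at either time. With the replicate number as a block, 2 leaf markers were lower and 1 root marker higher at 6 h. Leaf markers stood far above their sums in the P experiment, although both are labelled roots. The cause was not tested.

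Of the 56 genes, 41 passed the filter on low counts in the P experiment and 45 in the GR245DS experiment. The others did not exceed 0.703 and 0.496 CPM, respectively, in any library. The 7 that were below the filter in both were OPR1 Sobic.008G079600, TIFY 10b Sobic.001G259300, TIFY 11f Sobic.001G259400, TIFY 11e Sobic.001G259900, TIFY 11b Sobic.001G276900, a JAR4-type synthetase (Sobic.005G108300) and a 23 kDa jasmonate-induced protein (Sobic.002G024650).

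Between genes, levels were compared per length, on the authors' FPKM scale (fragments divided by gene length and library size). In mock roots at day 4 the highest member was 9S-lipoxygenase 3 (Sobic.001G125900), at 317 ± 31 FPKM (SD, n = 3). Allene oxide synthase 2 (Sobic.001G449700) followed at 142 ± 14.8 FPKM. After it came 9S-lipoxygenase 4 (Sobic.001G125800) at 122 ± 15.4, TIFY 3 (Sobic.006G244800) at 115 ± 4.2 and TIFY 10b (Sobic.002G374100) at 108 ± 3.57 FPKM. From the synthase down, each gene differed from the next by less than 2 SD of the more variable of the pair, so their order is not firm. The same 5 genes led in mock roots of the other experiment at 3 h, where 9S-lipoxygenase 3 was at 338 ± 63.7 FPKM and TIFY 3 came next at 261 ± 7. Among the OPR genes in mock roots, OPR13 (Sobic.006G091900) was at 50.2 ± 2.3 FPKM and OPR7 (Sobic.007G151100) at 22.3 ± 0.983 FPKM at day 4. In mock roots of the other experiment at 3 h, OPR7 was at 27.4 ± 0.268 FPKM, OPR13 at 13.3 ± 1.74 FPKM and OPR1 (Sobic.010G084700) at 2.54 ± 0.374 FPKM. With GR245DS at 3 h that OPR1 gene was at 107 ± 70.5 FPKM, which made it the highest of its class over those 12 libraries, at a mean of 42.8 FPKM. These tables were processed separately, so levels set across them are only side by side.

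**Figure D1:**
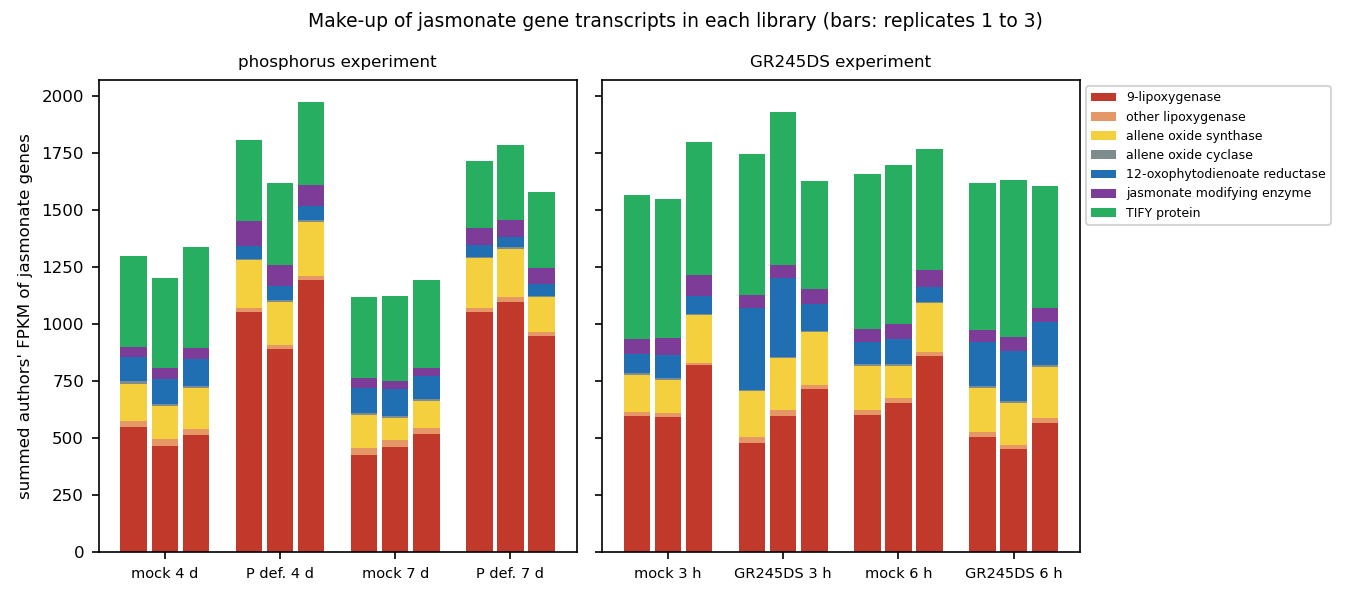
Summed FPKM of the members by class, stacked for each of the 24 libraries (authors' FPKM, linear axis from 0). The 9S-lipoxygenase share was 39.9% and 41% in mock and 57.9% and 60.9% in the P-deficiency-labelled libraries, and the OPR share was 5.52% and 5.31% in mock and 15.3% and 12.5% with GR245DS.

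As a share of the members' summed FPKM, 9S-lipoxygenases made up 39.9 ± 2.18% in mock at day 4 and 57.9 ± 2.72% in the P-deficiency-labelled libraries (SD, n = 3). At day 7 the shares were 41 ± 2.68% and 60.9 ± 0.875%. The 2 genes described as 9S-lipoxygenase 2 alone went from 4.96% and 2.9% in mock to 20.4% and 18.2%. TIFY proteins took 32.2% and 32.4% in mock and 20.1% and 18.8% in the P-deficiency-labelled libraries, and OPR genes 8.68% and 9.56% against 3.37% and 2.87%. The sum of all members was itself larger in the P-deficiency-labelled libraries (1801 and 1696 FPKM) than in mock (1280 and 1147 FPKM). Shares therefore fell more than levels. The TIFY sum was 412 and 372 FPKM in mock against 359 and 318 FPKM, and the OPR sum 111 and 109 FPKM against 60.2 and 48.5 FPKM. These shares and sums are descriptions with no test.

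In the P experiment members changed in both directions, also within some classes. Several 9S-lipoxygenases, a GH3.5-type synthetase and a methyltransferase were higher in the P-deficiency-labelled libraries. The OPR genes and TIFY repressors that changed, the allene oxide cyclase and 2 other lipoxygenases were lower. Of the 41 tested genes, 5 were higher and 15 lower at day 4, by edgeR's quasi-likelihood test with Benjamini-Hochberg adjustment over all 25137 genes (adjusted p below 0.05, n = 3 against 3). Over all genes, 20.3% were higher and 18.4% lower, 38.6% in all. At day 7, 8 members were higher and 15 lower, where 17.4% and 18.2% of all genes were (35.6% in all). Counts by class below are to be read against these shares. The members' median log2 difference was -0.37 at day 4 and -0.38 at day 7, against 0.02 and -0.02 over all genes. On both days 5 members were higher and 11 lower, where 13.7% and 13.8% of all genes were. Changes of direction between the days were rare over all genes (0.0358% and 0.0557%) and were seen in 0 members.

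**Figure D2:**
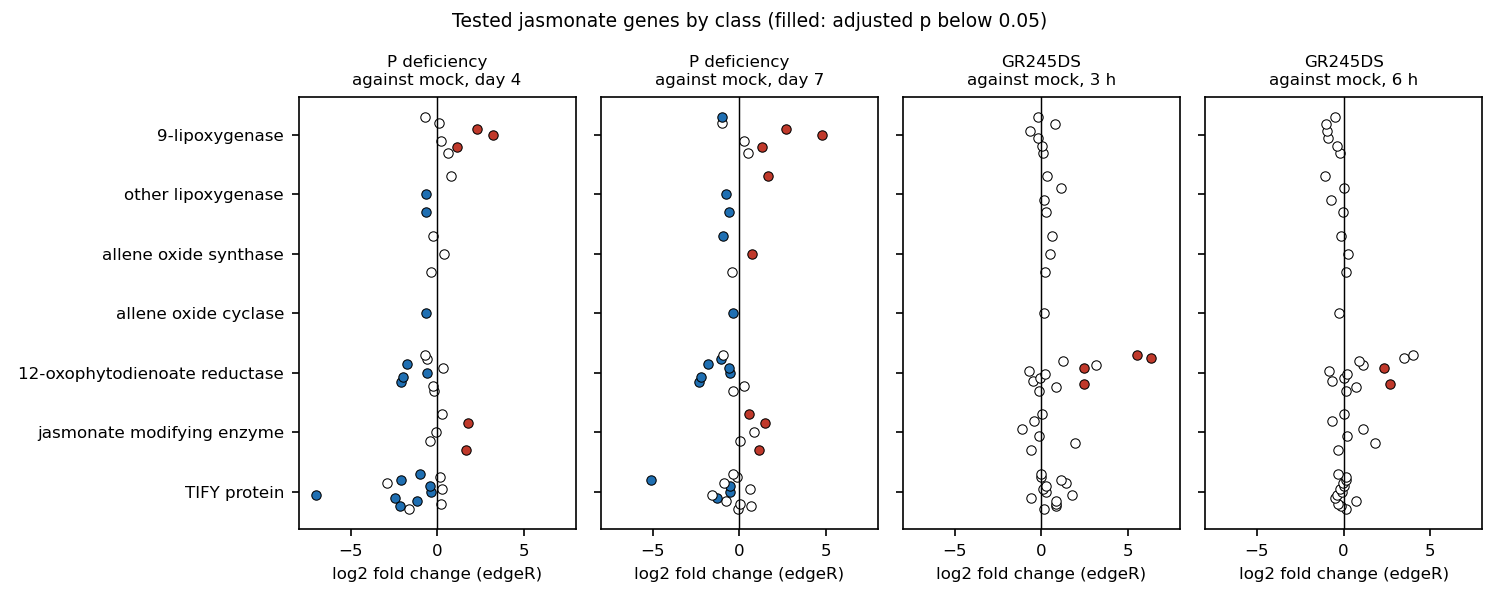
Fitted log2 differences of the tested members by class in the 4 treatment comparisons, 1 point a gene, with filled red points higher and filled blue points lower at an adjusted p below 0.05. In the P experiment filled points of the 9S-lipoxygenases lie mostly above 0 and those of the OPR and TIFY classes below it, while with GR245DS the only filled points are OPR genes (4 at 3 h, 2 at 6 h). The lowest TIFY point at day 4 is TIFY 11a, whose fitted value is not a bound because it had no count in 1 group. All points are from fits without the replicate block.

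The 3 genes of the 9S-lipoxygenase class that rose did so on both days. By edgeR 0 of 7 tested were lower at day 4 (1 at an unadjusted p below 0.05; 0 by DESeq2). Over all genes, 20.3% were higher and 18.4% lower at day 4, and 17.4% and 18.2% at day 7. The first 9S-lipoxygenase 2 gene, Sobic.003G385500, was at 32.1, 27.6 and 29.3 CPM in mock at day 4 and at 240, 177 and 424 CPM in the P-deficiency-labelled libraries. At day 7 it was at 8.92, 12.4 and 16.4 CPM in mock against 361, 354 and 319 CPM. Every labelled library was above every mock library on both days. At day 4 the means of 280 ± 128 and 29.7 ± 2.3 CPM differed 9.44-fold (log2 3.24 ± 0.29 SE, adjusted p = 2.49e-06). The day 7 means of 345 ± 22.3 and 12.6 ± 3.73 CPM differed 27.5-fold (log2 4.78 ± 0.313, adjusted p = 1.30e-07).

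The second copy, Sobic.003G385900, was higher in level and had smaller fold differences. It was at 176, 173 and 148 CPM in mock at day 4 and at 795, 608 and 1085 CPM in the P-deficiency-labelled libraries, a 5-fold difference (log2 2.32 ± 0.276, adjusted p = 2.84e-05). The day 7 values were 59.7, 126 and 97.8 CPM against 746, 655 and 473 CPM, 6.61-fold (log2 2.72 ± 0.281, adjusted p = 7.57e-06). The groups did not overlap on either day. No source used here says how reads matching more than 1 gene were counted, so the division of reads between these copies is uncertain. The same holds for OPR11 and OPR13, the OPR1 and OPR5 genes with identifiers starting Sobic.010G084, and the TIFY 11 genes.

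The last of these, 9S-lipoxygenase 4 (Sobic.001G125800), began from a high level. It was at 503, 388 and 389 CPM in mock at day 4 and at 1051, 851 and 952 CPM in the P-deficiency-labelled libraries. At day 7 it was at 475, 455 and 585 CPM against 1203, 1414 and 1158 CPM. The groups were apart on both days, by 2.23-fold (log2 1.16 ± 0.154, adjusted p = 7.40e-05) and 2.49-fold (log2 1.32 ± 0.155, adjusted p = 2.44e-05). Its neighbour by identifier and the most abundant member, 9S-lipoxygenase 3, was at 1193 against 1031 CPM at day 4 (adjusted p = 0.228) and 1170 against 977 CPM at day 7 (adjusted p = 0.146). One gene of the class, described as a 9S-lipoxygenase 6 fragment (Sobic.008G191000), was lower at day 7 (21.8 ± 7.8 against 43.7 ± 22.3 CPM, adjusted p = 0.0212), with groups that overlapped. That call was lost without mock replicate 2 or without replicate 2 or 3 labelled P deficiency.

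**Figure D3:**
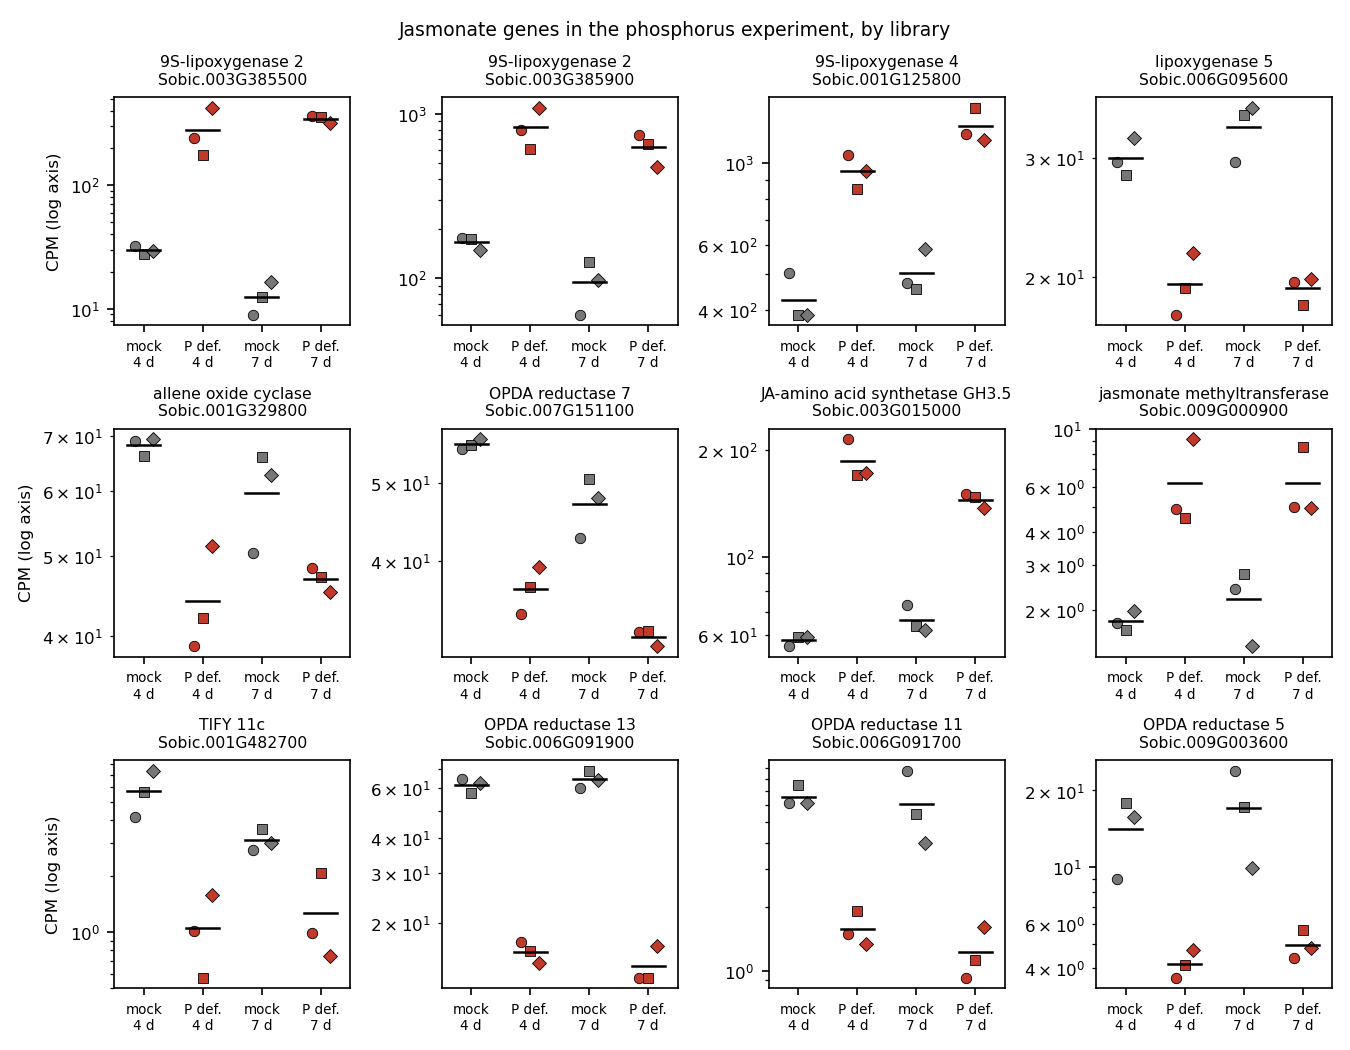
CPM of 12 members in the 12 libraries of the P experiment (log axis; circle, square and diamond are replicates 1, 2 and 3, and the line is the group mean). The 9S-lipoxygenase 2 gene Sobic.003G385500 lies at 8.92 to 32.1 CPM in mock and 177 to 424 CPM in the P-deficiency-labelled libraries, and OPR13 at 57.5 to 69.1 CPM in mock against 12.8 to 17.2 CPM.

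Of the 3 lipoxygenases tested outside the 9S group, 2 were lower on both days and 1 was higher at day 7. The gene called probable lipoxygenase 6 (Sobic.001G483400) was at 62.4, 68.7 and 62.7 CPM in mock at day 4 and at 44.5, 37.4 and 41 CPM in the P-deficiency-labelled libraries. It was 1.58-fold lower at day 4 (log2 -0.66 ± 0.114, adjusted p = 0.000598) and 1.48-fold lower at day 7 (47.1 ± 4.54 against 69.7 ± 6.65 CPM, adjusted p = 0.00177). Lipoxygenase 5 (Sobic.006G095600) was at 29.6, 28.3 and 32.1 CPM in mock at day 4 against 17.6, 19.3 and 21.7 CPM, 1.53-fold lower (adjusted p = 0.00144), and 1.73-fold lower at day 7 (19.2 ± 0.947 against 33.3 ± 3.24 CPM, adjusted p = 0.000233). For both genes all mock libraries stood above all labelled ones. A lipoxygenase 8 (Sobic.007G210400) was higher at day 7, from 0.251 ± 0.106 to 0.795 ± 0.515 CPM (adjusted p = 0.0413). It lost that call without mock replicate 2 or 3 or without replicate 2 labelled P deficiency.

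The single allene oxide cyclase (Sobic.001G329800), which closes the ring of 12-oxophytodienoic acid, was lower. It was at 69.1, 66.3 and 69.4 CPM in mock at day 4 and at 38.8, 42 and 51.5 CPM in the P-deficiency-labelled libraries, with no overlap, 1.55-fold (log2 -0.63 ± 0.127, adjusted p = 0.00178). At day 7 the values were 50.5, 66 and 62.8 CPM against 48.3, 47.1 and 45.2 CPM. That difference, 1.27-fold (log2 -0.35 ± 0.127, adjusted p = 0.0471), was lost on leaving out any 1 library except mock replicate 1 (adjusted p up to 0.179), with the replicate block (0.0589) and with total-count scaling (0.0733).

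Of the allene oxide synthases, which form the unstable allene oxide one step earlier, 0 of 3 passed edgeR's test at day 4 (1 lower at an unadjusted p below 0.05; 0 by DESeq2). The abundant allene oxide synthase 2 was at 382 ± 44.7 against 290 ± 30 CPM in mock at day 4 (adjusted p = 0.126). At day 7 its libraries were at 441, 414 and 283 CPM against 286, 174 and 215 CPM, overlapping by 1 library, 1.69-fold higher (log2 0.75 ± 0.198, adjusted p = 0.0094). Allene oxide synthase 4 (Sobic.004G093200) was lower at day 7, at 8.26, 7.84 and 6.55 CPM against 13.6, 11.8 and 18.1 CPM, 1.92-fold with no overlap (log2 -0.94 ± 0.202, adjusted p = 0.00283).

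Of 9 OPR genes tested, 4 were lower at day 4 and 6 at day 7, and 0 were higher by edgeR on either day (0 at an unadjusted p below 0.05; 0 by DESeq2), with class medians of -0.60 and -0.95 on the log2 scale. Among all genes, 18.4% and 18.2% were lower, and 20.3% and 17.4% higher. The gene described as OPR7 (Sobic.007G151100), the type that in rice acts in the peroxisome in jasmonate synthesis, was at 55.1, 55.8 and 56.7 CPM in mock at day 4 and at 34.4, 37.1 and 39.3 CPM in the P-deficiency-labelled libraries. At day 7 it was at 42.7, 50.6 and 47.9 CPM against 32.6, 32.7 and 31.3 CPM. The groups were apart on both days, 1.51-fold (log2 -0.60 ± 0.0997, adjusted p = 0.000447) and 1.46-fold (log2 -0.55 ± 0.0999, adjusted p = 0.000887).

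The largest fold differences of the class were in reductases not named OPR7. Whether those take part in jasmonate synthesis was not tested. OPR13 was at 64.6, 57.5 and 62.5 CPM in mock at day 4 and at 17.2, 15.9 and 14.4 CPM in the P-deficiency-labelled libraries, 3.89-fold lower (log2 -1.96 ± 0.13, adjusted p = 1.65e-07). On day 7 it held 60.1, 69.1 and 64 CPM against 12.8, 12.8 and 16.6 CPM, 4.59-fold lower (log2 -2.20 ± 0.131, adjusted p = 5.55e-08). Its replicates were tight, and the groups far apart, on both days. OPR11 (Sobic.006G091700) was 4.19-fold lower at day 4 (1.57 ± 0.302 against 6.59 ± 0.779 CPM, adjusted p = 0.000162) and 4.97-fold lower at day 7 (0.924, 1.12 and 1.61 CPM against 8.7, 5.45 and 3.97 CPM, adjusted p = 7.82e-05). OPR5 (Sobic.009G003600) was 3.39-fold lower at day 4 (4.18 ± 0.527 against 14.2 ± 4.57 CPM, adjusted p = 0.000638) and 3.43-fold lower at day 7 (4.95 ± 0.653 against 17 ± 7.04 CPM, adjusted p = 0.000591). For OPR11 and OPR5 the mock libraries varied more than the others, but none reached down to them. The others lower at day 7 were OPR1 Sobic.008G164450 (12.4 ± 1.6 against 18.6 ± 0.567 CPM, adjusted p = 0.0169) and OPR5 Sobic.010G084300 (2.95 against 6.22 CPM, adjusted p = 0.0239). The first call was lost without replicate 2 or 3 labelled P deficiency, and the second without mock replicate 3 or without replicate 1 or 2 labelled P deficiency. Another gene described as OPR11, Sobic.006G091600, was not called on either day. It was at 7.85 ± 0.946 against 9.15 ± 1.86 CPM in mock at day 4 (adjusted p = 0.487). At day 7 it was at 8.34 ± 2.38 against 6.91 ± 1.48 CPM (adjusted p = 0.401). The name OPR11 alone stands here for Sobic.006G091700.

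Of 5 modifying enzymes tested, 2 rose at day 4 and 3 at day 7 by edgeR, where 20.3% and 17.4% of all genes were higher. DESeq2 called 2 and 4 higher, as did edgeR with the replicate block. A GH3.5-type synthetase (Sobic.003G015000), of the family that joins jasmonic acid to isoleucine, was at 55.8, 59.2 and 59.2 CPM in mock at day 4 and at 214, 170 and 172 CPM in the P-deficiency-labelled libraries. By day 7 it was at 73.2, 63.6 and 62.2 CPM against 150, 147 and 137 CPM. Without overlap, it was 3.19-fold higher at day 4 (log2 1.67 ± 0.116, adjusted p = 2.49e-07) and 2.18-fold higher at day 7 (log2 1.13 ± 0.115, adjusted p = 6.87e-06). The second GH3.5 gene (Sobic.009G249900) was at 72 against 59.5 CPM at day 4 (adjusted p = 0.0786) and rose 1.47-fold at day 7 (62.7 ± 1.89 against 42.6 ± 6.76 CPM, adjusted p = 0.0024). The remaining GH3.5 gene (Sobic.003G224100) was at 6.7 against 8.81 CPM at day 4 (adjusted p = 0.303) and 4 against 3.91 CPM at day 7 (adjusted p = 0.95). A gene described as jasmonate O-methyltransferase (Sobic.009G000900), which in Arabidopsis makes methyl jasmonate, was at 1.78, 1.68 and 1.98 CPM in mock at day 4 and at 4.9, 4.52 and 9.13 CPM in the P-deficiency-labelled libraries. It was 3.42-fold higher at day 4 (adjusted p = 0.00117) and 2.79-fold higher at day 7 (6.17 ± 2.06 against 2.21 ± 0.685 CPM, adjusted p = 0.0037). The other methyltransferase tested (Sobic.005G226200) was at 12.8 against 13.2 CPM at day 4 (adjusted p = 0.923). At day 7 it was at 12.8 ± 4.11 against 6.97 ± 3.94 CPM, overlapping (adjusted p = 0.0629, and 0.00928 with the replicate block).

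Of 13 TIFY genes tested, 8 were lower at day 4 and 4 at day 7, while edgeR called 0 higher on either day (0 and 1 at an unadjusted p below 0.05; 0 and 1 by DESeq2). Among all genes, 18.4% and 18.2% were lower, and 20.3% and 17.4% higher. The class medians were -1.16 and -0.54 on the log2 scale. TIFY 6a (Sobic.007G132700) was at 161, 146 and 162 CPM in mock at day 4 and at 73.5, 61.3 and 99.9 CPM in the P-deficiency-labelled libraries, 2-fold lower with no overlap (adjusted p = 0.000604). At day 7 it was at 119 against 155 CPM (adjusted p = 0.108). TIFY 11c (Sobic.001G482700) was at 4.17, 5.66 and 7.34 CPM in mock at day 4 against 1.01, 0.568 and 1.58 CPM, 5.43-fold lower (log2 -2.44 ± 0.412, adjusted p = 0.00048). At day 7 it was 2.46-fold lower (1.27 ± 0.705 against 3.12 ± 0.414 CPM, adjusted p = 0.0245), a call lost without mock replicate 2 or without replicate 1 or 3 labelled P deficiency.

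TIFY 9 (Sobic.006G056400) was near the detection limit in the P-deficiency-labelled libraries, at 0.602, 0.25 and 0.153 CPM at day 4 and at 0, 0.136 and 0 CPM at day 7. Mock libraries held 1.53, 1.08 and 1.59 CPM at day 4 and 1.93, 1.34 and 2.06 CPM at day 7. The groups were apart on both days (adjusted p = 0.014 and 0.0002), although the day 4 call was lost without its replicate 2 (adjusted p = 0.0551). TIFY 11a (Sobic.001G482800) had 0 counts in the labelled libraries at day 4 and 44 in mock (0.425 CPM), at least 5.62-fold lower against a floor of 3 counts per library (adjusted p = 0.00326).

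TIFY 10b (Sobic.002G374100) was 1.35-fold lower at day 4 (124 ± 18.6 against 167 ± 9.58 CPM, adjusted p = 0.0307, lost without mock replicate 1 or replicate 2 labelled P deficiency) and 1.47-fold lower at day 7 (107 ± 20 against 157 ± 9.63 CPM, adjusted p = 0.00914). TIFY 6b (Sobic.002G196200) was 1.26-fold lower at day 4 (adjusted p = 0.0453, lost without mock replicate 1 or 3 or replicate 2 labelled P deficiency) and 1.45-fold lower at day 7 (48.5 ± 5.75 against 70.5 ± 3.57 CPM, adjusted p = 0.00416). TIFY 3, the most abundant, was at 159 ± 27.5 against 142 ± 6.96 CPM at day 4 (adjusted p = 0.447) and 137 ± 25.4 against 150 ± 18.8 CPM at day 7 (adjusted p = 0.543), so no direction was shown for it. The remaining 2 lower at day 4 were TIFY 11b Sobic.001G482600 (11 against 24.5 CPM, adjusted p = 0.0174, lost without mock replicate 3 or replicate 1 labelled P deficiency) and TIFY 11e Sobic.001G259700 (0.292 against 1.32 CPM, adjusted p = 0.0376, lost without any 1 library except mock replicate 1).

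By edgeR, the response was not shown to differ between the days for any member. The test of day 7 minus day 4 called 0 of 41 members by edgeR (117 genes in all, 0.465%, of which 0.267% upward and 0.199% downward). Of the members, 8 had an unadjusted p below 0.05, as did 2091 of all 25137 genes. DESeq2 called 2 members, a 9S-lipoxygenase upward and an OPR gene downward. The 9S-lipoxygenase 2 gene Sobic.003G385500 had a difference of 1.54 ± 0.383 on the log2 scale (unadjusted p = 0.00144, adjusted p = 0.138). From day 4 to day 7, this gene was also the 1 member that edgeR called in mock (29.7 to 12.6 CPM, adjusted p = 0.0478; DESeq2 called 7 members; 1.34% of genes changed, 0.847% up and 0.497% down). That call was lost when any 1 of the 6 libraries was left out (adjusted p up to 0.131). Within the P-deficiency-labelled libraries, allene oxide synthase 4 fell from 20 to 7.55 CPM (adjusted p = 0.0014) and TIFY 6b from 69.2 to 48.5 CPM (adjusted p = 0.0335), where 4.39% of genes changed.

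Genes around these steps were counted from fixed description words. Of 13 perception and transcription genes tested, 7 were higher and 1 lower at day 4, and 6 were higher and 1 lower at day 7, with medians of 0.56 and 0.36 (20.3% and 17.4% of all genes were higher). Except COI2, the genes of this list given here were picked after their values were seen. COI2 (Sobic.001G426900), of the jasmonate receptor family, was at 68.1 ± 8.2 against 40.7 ± 2.35 CPM in mock at day 4 (adjusted p = 0.000298) and 90 ± 9.86 against 43.4 ± 1.79 CPM at day 7 (adjusted p = 1.61e-05). COI1a (Sobic.003G359600) was at 195 ± 26.7 against 94.9 ± 9.42 CPM at day 4 (adjusted p = 0.000739) and 238 ± 22.4 against 133 ± 40.4 CPM at day 7 (adjusted p = 0.00308). COI1b (Sobic.009G157200) was at 295 ± 59.7 against 160 ± 5.02 CPM at day 4 (adjusted p = 0.00189) and 322 ± 62.7 against 178 ± 32.3 CPM at day 7 (adjusted p = 0.00246). Ninja proteins link the TIFY repressors to the Topless corepressor. Ninja-family protein 5 (Sobic.002G367100) was at 19.9 against 9.27 CPM at day 4 (adjusted p = 0.000302) and 16.8 against 9.04 CPM at day 7 (adjusted p = 0.00147). Ninja-family proteins 6 (Sobic.001G335400) and 8 (Sobic.009G228700) were higher on both days too (adjusted p = 0.0201 and 0.0351 at day 4, 0.00638 and 0.01 at day 7), and Ninja-family protein 1 (Sobic.001G456400) passed on neither (adjusted p = 0.094 and 0.668). A Topless-related gene (Sobic.009G049500) was the lower one, at 26 ± 2.98 against 47.8 ± 6 CPM at day 4 (adjusted p = 0.000476) and 29.7 ± 4.92 against 50.9 ± 5.5 CPM at day 7 (adjusted p = 0.00116), while a second one (Sobic.009G049800) was higher at day 4 (63.5 ± 4.47 against 43.2 ± 4.62 CPM, adjusted p = 0.00394). MYC2 (Sobic.001G287600), the transcription factor that the repressors hold back, was at 114 against 102 CPM at day 4 (adjusted p = 0.401) and 117 against 102 CPM at day 7 (adjusted p = 0.326).

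The upstream and downstream lists held calls in both directions, and their counts are to be read against the all-gene shares of 20.3% higher and 18.4% lower at day 4 and 17.4% and 18.2% at day 7. Of 20 lipid-release genes, 5 were higher and 5 lower at day 4, and 2 were higher and 5 lower at day 7. Phospholipase A1-II 7 (Sobic.009G240600) was 2.47-fold lower at day 4 (148 ± 36 against 367 ± 75.5 CPM, adjusted p = 0.000253) and 3.83-fold lower at day 7 (95.1 ± 12.1 against 365 ± 60.5 CPM, adjusted p = 1.01e-05). Of 28 genes of peroxisomal import and beta-oxidation, 6 were higher and 10 lower at day 4, and 8 were higher and 12 lower at day 7. The 4-coumarate-CoA ligase-like 3 gene (Sobic.004G350600) was 2.46-fold lower at day 4 (10.1 ± 0.223 against 24.8 ± 2.36 CPM, adjusted p = 4.97e-06) and 2.2-fold lower at day 7 (adjusted p = 1.40e-05).

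Of 20 turnover genes, 4 were higher and 3 lower at day 4, and 3 were higher and 2 lower at day 7, near those shares. An ILR1-like 6 hydrolase (Sobic.010G241200), of a family that splits hormone conjugates with amino acids, was 6.97-fold higher at day 4 (13.6 ± 2.42 against 1.95 ± 0.319 CPM, adjusted p = 8.20e-06) and 5.32-fold higher at day 7 (14.7 ± 5.8 against 2.76 ± 0.65 CPM, adjusted p = 2.20e-05). Of 37 genes listed by words for defence proteins, 6 were higher and 9 lower at day 4, and 9 were higher and 10 lower at day 7. Cysteine proteinase inhibitor 4 (Sobic.003G400400) had 180 counts in the P-deficiency-labelled libraries and 1 in mock at day 4, a ratio of 157 (95% interval 27.8 to 6237, counting error only; adjusted p = 8.86e-06). A chitinase-like 1 gene (Sobic.002G252000) was 2.81-fold lower at day 7 (68.3 ± 7.43 against 192 ± 26.5 CPM, adjusted p = 6.21e-06). It entered the list by the word chitinase alone, which does not show a role in defence. The 1 hydroperoxide lyase passed edgeR's test on neither day (unadjusted p above 0.05 on both; not called by DESeq2).

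With GR245DS, the members that edgeR called without the block were all OPR genes not described as OPR7, and they were higher. At 3 h, 4 of 45 tested members were higher and 0 lower (1 lower at an unadjusted p below 0.05; 0 by DESeq2), where 1.01% of 24814 genes changed (0.995% higher, 0.0121% lower). At 6 h, 2 were higher and 0 lower (2 lower unadjusted; 0 by DESeq2), where 0.484% changed (0.48% higher, 0.00403% lower). Both of the latter were among the 4. Here libraries with the same replicate number deviated together. With the replicate number as a block, 7 members were higher at 3 h (3.13% of genes called, 2.56% higher and 0.576% lower) and 5 were higher and 1 lower at 6 h (2.05%, 1.53% higher and 0.52% lower). Replicate 3 with GR245DS at 3 h was the lowest of its group for the 4 genes. Without replicate 3 of every group, 7 members were called at 3 h and 1 at 6 h. This count and those on leaving out 1 library come from fits without the block. The 3 h count was 2 without any 1 mock library. The 6 h count was 0 without mock replicate 2 or 3, 3 without mock replicate 1, and 1 without any 1 treated library. The median log2 difference of the 45 was 0.20 at 3 h and -0.01 at 6 h, against -0.02 and -0.03 over all genes. The 12 OPR genes tested had medians of 1.04 and 0.80.

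The OPR1 gene Sobic.010G084700 had the highest treated level of the called reductases. It was at 4.47, 3.37 and 3.7 CPM in mock at 3 h and at 251, 244 and 42.2 CPM with GR245DS. At 6 h it was at 12.4, 3.78 and 1.65 CPM in mock against 89.8, 108 and 90.9 CPM. Every treated library was above every mock one, although replicate 3 at 3 h was well below the others of its group. The gene was 46.6-fold higher at 3 h (179 ± 119 against 3.85 ± 0.565 CPM, log2 5.54 ± 0.825, adjusted p = 0.00819; 0.00257 with the block). Without mock replicate 2 or 3 the adjusted p was up to 0.0602. At 6 h the 16.2-fold difference (96.1 ± 9.91 against 5.95 ± 5.7 CPM, log2 4.01 ± 0.767) passed edgeR's test with the block (adjusted p = 0.0084) and not without it (0.0555). DESeq2 called 4 OPR genes higher at 6 h.

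A second OPR1 gene, Sobic.010G084600, followed the same libraries at a lower level. It was at 0.722, 0.418 and 0.293 CPM in mock at 3 h and at 53.8, 53.9 and 7.76 CPM with GR245DS. This 80.5-fold difference (log2 6.33 ± 1.04, adjusted p = 0.0153; 0.00305 with the block) was lost without any 1 mock library (adjusted p up to 0.0953). At 6 h it was at 3.87, 0.61 and 0.305 CPM in mock against 17.7, 19 and 18.4 CPM, 11.5-fold higher (adjusted p = 0.225; 0.0224 with the block). Another OPR1 gene, Sobic.010G084100, was at 0.805, 0.209 and 0.32 CPM in mock at 3 h against 8.04, 3.2 and 0.695 CPM, overlapping between the groups.

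**Figure D4:**
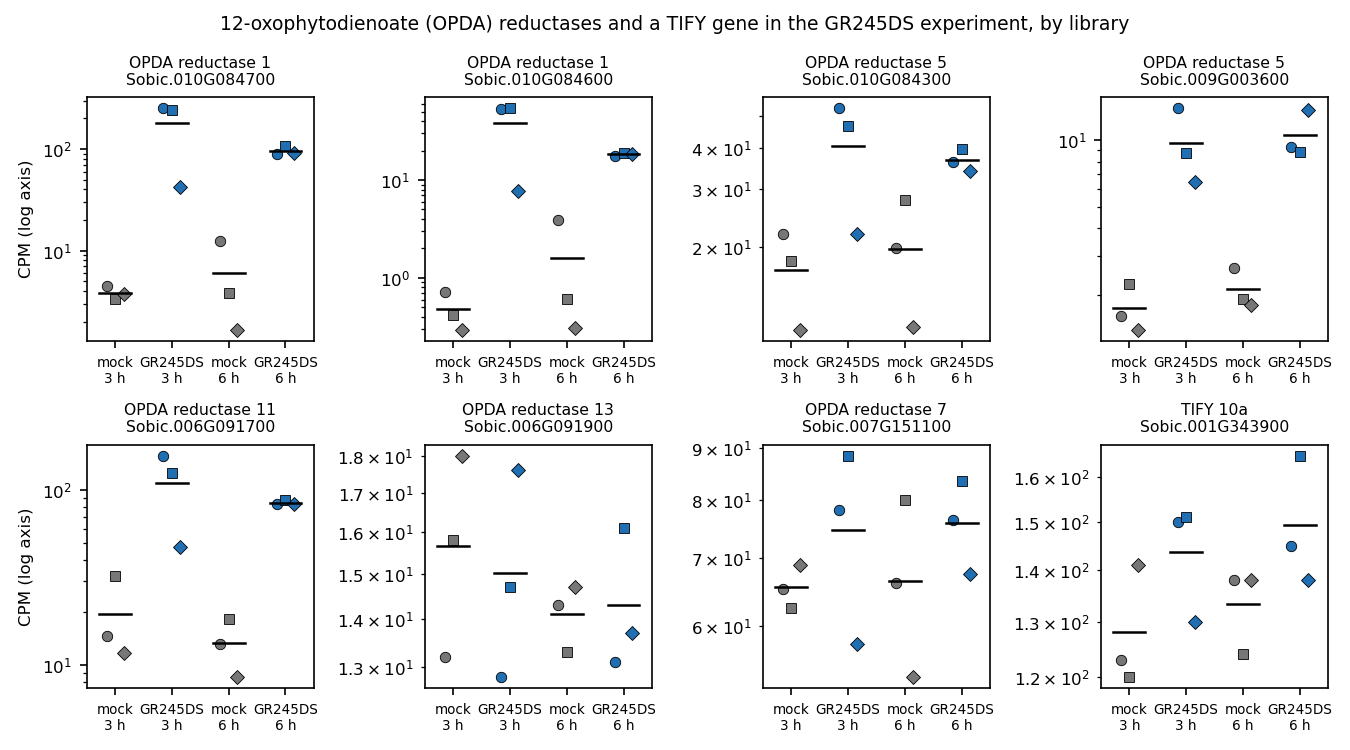
CPM of 7 OPR genes and TIFY 10a in the 12 libraries of the GR245DS experiment (log axis; circle, square and diamond are replicates 1, 2 and 3, and the line is the group mean). OPR1 Sobic.010G084700 lies at 1.65 to 12.4 CPM in mock and 42.2 to 251 CPM with GR245DS, while OPR7, OPR13 and TIFY 10a overlap between treated and mock libraries.

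OPR11 Sobic.006G091700 and OPR5 Sobic.009G003600 were higher at both times. OPR5 was at 1.61, 2.24 and 1.39 CPM in mock at 3 h and at 13.9, 8.75 and 6.5 CPM with GR245DS, 5.56-fold higher (log2 2.47 ± 0.341, adjusted p = 0.00525; 0.00205 with the block), and kept its call whichever library was left out. In the fit of only those groups its adjusted p was 0.0554. At 6 h it was at 2.65, 1.92 and 1.8 CPM against 9.28, 8.81 and 13.7 CPM, 5-fold higher (log2 2.32 ± 0.339, adjusted p = 0.012; up to 0.0758 without mock replicate 2 or 3).

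OPR11 was at 14.6, 32.4 and 11.7 CPM in mock at 3 h and at 157, 125 and 47.4 CPM with GR245DS, 5.61-fold higher (log2 2.49 ± 0.486, adjusted p = 0.0396; 0.00292 with the block). At 6 h it was at 13.1, 18.3 and 8.51 CPM against 83, 87.6 and 82.9 CPM, 6.35-fold higher (log2 2.67 ± 0.49, adjusted p = 0.0452; 0.00247 with the block). The groups did not overlap at either time. The calls without the block were close to the threshold: that at 3 h was lost without mock replicate 1 or 3 or GR245DS replicate 1 or 2 (adjusted p up to 0.155). That at 6 h was lost without any 1 of the 6 libraries (adjusted p up to 0.186).

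The OPR5 gene Sobic.010G084300 was called by edgeR with the block and not without it. It was at 40.4 ± 16.3 against 17.1 ± 5.39 CPM at 3 h, 2.36-fold (adjusted p = 0.0128 with the block, 0.275 without), and at 36.6 ± 2.77 against 19.6 ± 8.13 CPM at 6 h, 1.86-fold (adjusted p = 0.0449 and 0.741). Several OPR genes were not called. Another gene described as OPR11, Sobic.006G091600, was at 14.8 ± 5.29 CPM with GR245DS at 3 h and 8.27 ± 2.38 CPM in mock. At 6 h it was at 11.3 ± 1.31 against 6.93 ± 3.64 CPM, and the groups overlapped at both times. OPR1 Sobic.008G164450 was at 6.07, 12.5 and 4.26 CPM with GR245DS at 3 h against 12.3, 14.1 and 11.4 CPM in mock (log2 -0.72, adjusted p = 0.719; 0.0799 with the block). At 6 h its treated libraries, at 9.21, 10.3 and 7.69 CPM, all lay below mock, at 12.9, 23.9 and 11.4 CPM (log2 -0.83, adjusted p = 0.83; 0.148 with the block). OPR7 was at 78.2, 88.4 and 57.6 CPM with GR245DS at 3 h and 65.3, 62.5 and 68.9 CPM in mock, overlapping (adjusted p = 0.895; adjusted p = 1 at 6 h). OPR13 was at 15 ± 2.44 against 15.7 ± 2.36 CPM at 3 h (adjusted p = 0.979) and 14.3 against 14.1 CPM at 6 h (adjusted p = 1).

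The summed OPR level per length was higher in every treated library than in any mock library of its time. It was 87.5, 103 and 77.7 FPKM in mock at 3 h against 362, 345 and 118 FPKM with GR245DS, and 96.5, 111 and 64 FPKM at 6 h against 195, 222 and 192 FPKM. OPR genes made up 5.52 ± 1.17% of the members' summed FPKM in mock at 3 h and 15.3 ± 7.1% with GR245DS, and 5.31 ± 1.51% and 12.5 ± 0.928% at 6 h. These sums were not tested.

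Counts for the other members are to be read against the 1.01% and 0.484% of all genes called at 3 and 6 h. Without the block, 0 of the 6 9S-lipoxygenases, 4 other lipoxygenases, 3 allene oxide synthases, 1 allene oxide cyclase, 6 modifying enzymes and 13 TIFY genes tested were called by edgeR at either time. At 3 h, 4 of these 33 had an unadjusted p below 0.05 and DESeq2 called 2; at 6 h, 2 had and DESeq2 called 0. Of all 24814 genes, 1963 had such a p at 3 h and 1527 at 6 h. Allene oxide synthase 2 was at 453 against 321 CPM in mock at 3 h (adjusted p = 0.619), and the cyclase at 41.8 against 37.9 CPM (adjusted p = 0.884). The block added 2 other members at 3 h. Lipoxygenase 5 was at 57.8, 59.5 and 30.7 CPM with GR245DS against 33.4, 20.6 and 13.5 CPM in mock, overlapping (2.19-fold, adjusted p = 0.0101 with the block, 0.213 without). TIFY 9 Sobic.006G056400 was at 5.95, 5.39 and 6.28 CPM against 2.39, 1.57 and 4.21 CPM, not overlapping (2.16-fold, adjusted p = 0.0321 with the block, 0.233 without). At 6 h the block's single lower call was 9S-lipoxygenase 2 Sobic.003G385500, at 83.1, 35 and 51.9 CPM against 117, 67.6 and 131 CPM (adjusted p = 0.0331 with the block, 0.857 without).

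Without the block, the other pathway lists held no call, at times when 1.01% (3 h) and 0.484% (6 h) of all genes were called: 0 of 21 lipid-release, 27 peroxisomal, 14 perception, 20 turnover and 37 defence genes and 1 hydroperoxide lyase tested by edgeR at 3 or 6 h. At 3 h, 10 of these 120 had an unadjusted p below 0.05 and DESeq2 called 2; at 6 h, 7 had and DESeq2 called 0. Of all 24814 genes, 1963 had such a p at 3 h and 1527 at 6 h, so these counts say nothing particular of the lists. With the block, 3 of the 120 were higher at 3 h, a share near the 2.56% of all genes: chitinase 6 (Sobic.004G208700, 248 against 123 CPM, adjusted p = 0.035), a chitinase CLP (Sobic.005G224500, 10050 against 4410 CPM, adjusted p = 0.00595) and CYP94B1 (Sobic.008G015000, 28.3 against 11.9 CPM, adjusted p = 0.0266). At 6 h, phospholipase A1-II 7 (Sobic.001G365100, adjusted p = 0.0344) and chitinase 10 (Sobic.003G137600, adjusted p = 0.0387) were lower with the block.

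Between the times, no member was called. The test of the 6 h response minus the 3 h response called 0 members and 0 genes by edgeR (3 members and 289 genes at an unadjusted p below 0.05; 0 members by DESeq2). Mock roots at 6 h against 3 h gave 0 members and 0 genes by edgeR (3 members and 344 genes unadjusted; 0 members and 5 genes by DESeq2).

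Set side by side, 37 members were tested in both experiments. OPR11 Sobic.006G091700 and OPR5 Sobic.009G003600 were lower in the P-deficiency-labelled libraries and higher with GR245DS. Over all genes tested in both tables, 67 of 23098 (0.29%) were lower at day 4 and higher at 3 h. By edgeR 0 members were higher at both day 4 and 3 h, where 56 genes (0.242%) were, so the 0 says nothing particular of them. Were the mock and P deficiency labels exchanged, OPR11 and OPR5 would be higher in both experiments. OPR13 was the reductase with the smallest adjusted p in the P experiment and did not change detectably with GR245DS. Conversely, the OPR1 gene Sobic.010G084700 had group means of 0.134 to 0.404 FPKM in the P experiment and reached 107 ± 70.5 FPKM with GR245DS at 3 h.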

How the data were processed

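mRNA libraries of Sorghum bicolor roots were sequenced, per the labels' protocols. The submitters' processing notes name fastp, HISAT2, featureCounts and DESeq2 1.22.1. For genome build, strandedness and the handling of multi-mapping reads, nothing is given in the sources used here. Each deposited table held raw counts per gene and, per the file headers, FPKM values made by the authors. FPKM served only to compare levels between genes. The authors' fold changes were not used.

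From the counts, genes were filtered (filterByExpr), scaled (TMM) and tested per table over all 12 libraries with edgeR 4.0.16 (quasi-likelihood, robust; R 4.3.3, limma 3.58.1), with Benjamini-Hochberg adjustment over all genes and a threshold of 0.05. CPM are counts divided by TMM-scaled library size. Errors are SD over 3 libraries, or SE for log2 differences. Intervals and floors cover counting error only. Named genes were, per class, the 3 smallest adjusted p per treatment comparison with non-overlapping groups and a mean of at least 1 CPM, and the member highest in FPKM; of each other pathway list, the smallest adjusted p per comparison. Genes beyond this, in the smaller counts above all, were picked after their values were seen. Members and lists were chosen with earlier results of these data known.

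Same-numbered libraries deviated together in the GR245DS table (18 correlations of deviations from group means, 0.14 to 0.76). The main fit nevertheless had no block, as the labels do not state that the numbers pair libraries. Its calls, log2 differences, SE, medians and leave-one-out results leave that shared deviation out. Values from a fit with the replicate block are given beside them where named. Alternatives were other scalings (RLE size factors, total counts), filters and samples, a 2-fold minimum, DESeq2 1.42.0, the replicate block and leaving out each library. The scripts were tested on simulated data.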

Additional observations from a re-analysis of the deposited data

How the results depend on the processing

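Settings were varied for 45 combinations of gene and comparison. These were picked for the smallest adjusted p in the same libraries, so reversals were unlikely from the start. Of their 590 log2 differences, 0 reversed and 27 lost the threshold, 19 of them on leaving out 1 library. Of the losses, 17 were in the 5 GR245DS combinations. Genes outside the 45 could reverse: TIFY 3 at day 4 ranged from -0.03 to 0.24 on leaving out 1 library. Requiring a 2-fold change left 13 of 20 members at day 4 and 13 of 23 at day 7. Leaving out 1 library gave 17 to 21 members at day 4, 18 to 25 at day 7, 0 to 3 for mock between the days, 0 to 1 for the difference between the days, 2 to 4 at 3 h, 0 to 3 at 6 h, and 0 to 0 for both the GR245DS response and mock between the times. In the P experiment the numbers did not pair the samples (18 correlations, -0.29 to 0.46, median -0.04); with the replicate block 18 members were called at day 4, 24 at day 7 and 2 for mock between the days. Mock between the days gave 2 members with total counts and 7 with DESeq2, and the difference between the days 2 with DESeq2. At 3 h the count was 2 with only the groups compared, 7 with the replicate block and 7 without replicate 3 of every group; it was 2 without mock replicate 1, 2 or 3. At 6 h it was 1 with RLE size factors, 1 with total counts, 4 with DESeq2, 6 with the replicate block and 1 without replicate 3 of every group; it was 0 without mock replicate 2 or 3. The cause of these shifts was not tested.

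Over all genes, a 2-fold minimum left 4682 at day 4, 4492 at day 7 and 210 for mock between the days. DESeq2 called 862 for mock between the days, 416 for the difference between the days, 589 at 3 h and 328 at 6 h; the block gave 71 for the difference between the days, 777 at 3 h and 509 at 6 h, against 117, 250 and 120. Only the groups compared gave 176 for mock between the days, against 338, and 100 at 3 h. Total-count scaling moved the all-gene median at 3 h from -0.02 to -0.15 and at 6 h from -0.03 to -0.11 on the log2 scale. Genes under 1 CPM and the wide spread of GR245DS replicates limit what could be detected.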
